A study of Mus musculus with 9 samples.

Results

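The data described here are the RNA levels of 9 genes grouped as fatty acid beta-oxidation enzymes, Cpt1a, Cpt1c, Cpt2, Acadvl, Acadl, Acadm, Hadha, Hadhb and Etfdh. Cpt1c is counted among them as a form of carnitine palmitoyltransferase 1, although its protein lies in the endoplasmic reticulum and not in mitochondria. The 9 genes were chosen by name from a table of 21899 genes, and all 9 passed the filter on low counts together with 12448 genes in all. RNA was sequenced from Neuro-2a cells (N2a, a mouse neuroblastoma line labelled as neuroblasts of the brain) with a control hairpin that targets luciferase (shlucif) or with shArf1-1 or shArf1-2, which both target Arf1, and with no further treatment. Arf1 encodes a small GTPase of the Golgi apparatus, and the study asked how its loss alters lipid metabolism. Each group held 3 libraries, and the 6 libraries with either Arf1 hairpin are called Arf1-deficient. All groups share the cell line and carry a hairpin. Whether the cells of a group came from 1 clone, and whether the libraries of a group came from separate cultures, is not given in the sources used here, so p-values measure the spread between these libraries.

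Fatty acids enter mitochondria as carnitine esters. Carnitine palmitoyltransferase 1 on the outer membrane makes the ester and carnitine palmitoyltransferase 2 on the inner membrane reverses it. Acyl-CoA dehydrogenases of different chain-length preference then carry out the first oxidation, and their electrons reach the respiratory chain through electron transfer flavoprotein and its dehydrogenase. The trifunctional protein, a complex of alpha and beta subunits, completes the cycle for long chains. Neurons are known to use little fatty acid as fuel in comparison with muscle or liver.

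Total counts per library ranged from 13381570 to 13786986 in the shlucif group, from 11182479 to 15594615 in the shArf1-1 group and from 13463280 to 14659400 in the shArf1-2 group. Arf1 was at 324 FPKM on average with shlucif, 128 with shArf1-1 and 165 with shArf1-2, where FPKM is the count scaled to the listed gene length and to the total of the library. Over both hairpins Arf1 changed by -1.21 on the log2 scale (standard error, SE, 0.09, edgeR adjusted p = 6.05e-08). The control group also differed in markers of other cells. The 20 macrophage and microglia markers summed to between 327 and 394 CPM (counts scaled to the library total) in the shlucif libraries, to between 1.44 and 1.52 with shArf1-1 and to between 1.64 and 2.05 with shArf1-2. All 17 markers that passed the filter were lower in Arf1-deficient cells. They passed it through their counts in the shlucif libraries, so this direction was set by the filter. Of the 20 markers, 11 were at 0 in every shArf1-1 library and 9 in every shArf1-2 library. The 3 with the most counts were Lyz2 (1078 to 1237 counts with shlucif and 3 to 10 with either Arf1 hairpin), Cd68 (849 to 1050 and 2 to 7) and Ctss (564 to 649 and 0). The 14 neuroblast and neuronal markers summed to between 1648 and 1694 CPM with shlucif, between 2504 and 2782 with shArf1-1 and between 2429 and 2599 with shArf1-2. In the Arf1-deficient libraries 11 of 13 tested markers rose and 1 fell, beside 31.6% of all tested genes higher and 32.9% lower. The 8 fibroblast markers summed to 43.1 to 43.9 CPM, 15.8 to 16.1 and 21.8 to 23.3 in the same order. These markers moved with every comparison against shlucif below. Their part in those results was not tested, and the design gives no shlucif library without them. In such bulk samples fewer cells of a type and less RNA per cell cannot be told apart.

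Compared with shlucif, 7 of the 9 enzymes changed in Arf1-deficient cells, in both directions. Cpt1a, Hadhb and Etfdh rose, by 46.8%, 50.5% and 18.6%, whereas Acadl fell by 39.6%, Cpt2 fell by 31.8%, Cpt1c fell by 22.0% and Hadha fell by 15.1%. Acadm and Acadvl did not pass the test. Calls rest on the quasi-likelihood test of edgeR, with p-values adjusted by Benjamini-Hochberg over all 12448 tested genes and a threshold of 0.05. Changes were widespread in this comparison, since 64.5% of all tested genes passed the same threshold. Of all tested genes, 31.6% were higher and 32.9% lower. The median log2 fold change of the 9 enzymes was -0.11, beside 0.00 over all tested genes, and the median size of the change was 0.36 beside 0.37. Read against this background, the count of 7 of 9 is not a result about the enzymes as a set, and what follows describes each gene. The FPKM of the 3 genes that rose was higher in all 6 Arf1-deficient libraries than in any shlucif library, and that of the 4 genes that fell was lower in all 6. How many of all tested genes are separated in this way was not counted. The separation, here and gene by gene below, describes genes already called and is not further support.

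**Figure D1:**
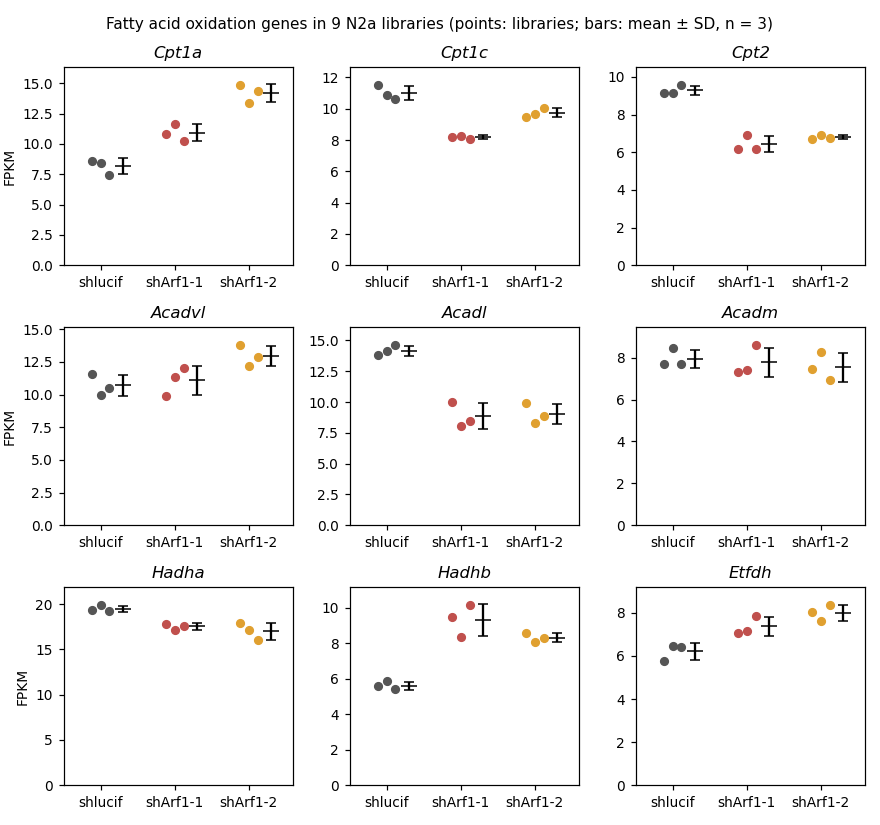
FPKM of the 9 enzymes (vertical axes from 0) in the 3 shlucif, 3 shArf1-1 and 3 shArf1-2 libraries, 1 point per library, with bars for the mean ± SD of 3. Cpt1a, Hadhb and Etfdh lie higher in all 6 Arf1-deficient libraries than in shlucif, Acadl, Cpt2, Cpt1c and Hadha lie lower, and the groups overlap for Acadm.

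Cpt1a encodes the broadly expressed form of carnitine palmitoyltransferase 1, which controls the entry of long-chain fatty acids and is inhibited by malonyl-CoA. Its FPKM was 8.62, 8.46 and 7.47 in the shlucif libraries, 10.8, 11.7 and 10.3 with shArf1-1, and 14.8, 13.4 and 14.4 with shArf1-2. The 3 groups did not overlap, and shArf1-2 was the highest. Over both hairpins it rose by 0.55 log2 units (SE 0.11, adjusted p = 0.000464 by edgeR). Cpt1c encodes the neuron-enriched form, which lies in the endoplasmic reticulum and has little transferase activity. It was at 11.5, 10.9 and 10.6 FPKM with shlucif, 8.22, 8.28 and 8.07 with shArf1-1, and 9.51, 9.66 and 10.1 with shArf1-2. All 6 Arf1-deficient libraries lay under the lowest shlucif library, at a change of -0.36 in log2 (SE 0.08, adjusted p = 0.000501). An antisense gene, 6530437J22Rik, which is absent from the genes counted, overlaps 366 exon bases of Cpt1c (6.53%).

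Cpt2, the inner-membrane partner of Cpt1a, moved in the other direction from it. Its FPKM was 9.16, 9.13 and 9.54 with shlucif, 6.15, 6.92 and 6.20 with shArf1-1, and 6.70, 6.93 and 6.76 with shArf1-2. None of the Arf1-deficient libraries reached the control range. The change was -0.55 in log2 (SE 0.09, adjusted p = 2.16e-05). The muscle form Cpt1b, named after its values were seen, held at most 9 counts in any library and was not tested.

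Among the acyl-CoA dehydrogenases, Acadl, the long-chain enzyme, showed the largest fall of the 9 genes. It was at 13.8, 14.1 and 14.6 FPKM with shlucif, 10.04, 8.03 and 8.44 with shArf1-1, and 9.93, 8.34 and 8.84 with shArf1-2. The 6 Arf1-deficient libraries lay below the controls, and those of the hairpins overlapped. The change was -0.73 in log2 (SE 0.09, adjusted p = 1.36e-06). Acadvl, the very-long-chain enzyme of the inner membrane, was at 11.6, 9.99 and 10.5 FPKM with shlucif, 9.88, 11.3 and 12.1 with shArf1-1, and 13.8, 12.2 and 12.9 with shArf1-2. Its shArf1-1 libraries spanned the control range and its shArf1-2 libraries lay above it. The log2 fold change over both hairpins was 0.11, with a 95% interval from -0.10 to 0.31 (adjusted p = 0.349). Of the exon bases of Acadvl, 1151 (42.9%) also belong to Dvl2 on the opposite strand, so reads from that stretch cannot be assigned unless counting used strand, which is not given in the sources used here. Dvl2 itself had a log2 fold change of 0.29 (adjusted p = 0.00337).

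Acadm, the medium-chain dehydrogenase, was at 7.71, 8.44 and 7.69 FPKM with shlucif, 7.33, 7.43 and 8.59 with shArf1-1, and 7.44, 8.26 and 6.91 with shArf1-2. The groups overlapped, and the log2 fold change was -0.11 with a 95% interval from -0.29 to 0.06 (adjusted p = 0.241). Etfdh encodes the dehydrogenase that passes electrons from electron transfer flavoprotein to ubiquinone. It was at 5.77, 6.47 and 6.40 FPKM with shlucif, 7.08, 7.17 and 7.87 with shArf1-1, and 8.04, 7.61 and 8.35 with shArf1-2. All 6 Arf1-deficient libraries exceeded the controls, by 0.25 in log2 (SE 0.07, adjusted p = 0.00588). Its neighbour on the opposite strand, 4930579G24Rik, which starts 421 bases away and overlaps 278 exon bases (3.70%), had a log2 fold change of 0.35 (adjusted p = 0.00554).

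Hadha and Hadhb encode the alpha and beta subunits of the trifunctional protein, which are needed together. Hadha carries the hydratase and hydroxyacyl-CoA dehydrogenase activities and Hadhb the thiolase. Hadha was at 19.4, 19.9 and 19.2 FPKM with shlucif, 17.8, 17.1 and 17.7 with shArf1-1, and 17.9, 17.1 and 16.03 with shArf1-2. Every Arf1-deficient library was below the controls, but by a small margin, at -0.24 in log2 (SE 0.05, adjusted p = 0.000575). Hadhb was at 5.58, 5.86 and 5.42 FPKM with shlucif, 9.46, 8.34 and 10.1 with shArf1-1, and 8.57, 8.10 and 8.31 with shArf1-2. All Arf1-deficient libraries exceeded the controls, at 0.59 in log2 (SE 0.08, adjusted p = 4.42e-06). The Hadhb value is uncertain in one respect. Transcripts of Gm13910 and Gm9108, which are absent from the genes counted, match Hadhb transcripts at 99.8% identity over 1428 bases and 97.6% over 1426 bases, so that the counting could split reads between them. Whether it did cannot be seen in these counts. Hadha shares 75 exon bases (0.86%) with Garem2 on the opposite strand, which had a log2 fold change of -0.45 (adjusted p = 0.00346).

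The subunit genes lie head to head on chromosome 5 of GRCm38, Hadha from 30118304 to 30155162 on the minus strand and Hadhb from 30155248 to 30184593 on the plus strand, with 85 bases between their GENCODE starts. The promoter window that RefSeq gives for Hadhb (250 bases before its start and 50 after, GRCm38.p6, chr5:30155003-30155302, plus strand) is printed because it spans both GENCODE starts. Of its 300 bases 228 also belong to the RefSeq window of Hadha (chr5:30154931-30155230, minus strand). The RefSeq start of Hadha, by that window, differs from the GENCODE start and lies outside the printed bases. Capitals mark the 85 bases between the GENCODE starts, from which the genes are read away from each other. Across these bases lie a gene that fell in all 6 Arf1-deficient libraries and one that rose in all 6.
Hadhb: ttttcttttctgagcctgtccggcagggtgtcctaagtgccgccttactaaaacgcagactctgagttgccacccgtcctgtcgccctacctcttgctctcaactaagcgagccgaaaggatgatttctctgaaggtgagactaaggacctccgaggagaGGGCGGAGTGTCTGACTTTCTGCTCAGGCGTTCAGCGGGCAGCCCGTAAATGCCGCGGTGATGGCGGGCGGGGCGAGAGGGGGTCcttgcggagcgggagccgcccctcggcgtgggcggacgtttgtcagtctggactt

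The windows of the gene with the largest rise under shArf1-2 and of the enzymes with the largest falls, Cpt1a (chr19:3323051-3323350, plus strand), Acadl (chr1:66863260-66863559, minus strand) and Cpt2 (chr4:107923540-107923839, minus strand), follow in their gene's direction, so that their composition can be compared. Capitals mark 3 short motifs searched on both strands, the nuclear receptor core AGGTCA, the CCAAT box CCAAT and the GC box GGGCGG, or their reverse complements. The GC box and the CCAAT box can overlap at their ends, and a match is only a run of letters. By GENCODE, Cpt1a starts at 3322334, outside its printed window.
Cpt1a: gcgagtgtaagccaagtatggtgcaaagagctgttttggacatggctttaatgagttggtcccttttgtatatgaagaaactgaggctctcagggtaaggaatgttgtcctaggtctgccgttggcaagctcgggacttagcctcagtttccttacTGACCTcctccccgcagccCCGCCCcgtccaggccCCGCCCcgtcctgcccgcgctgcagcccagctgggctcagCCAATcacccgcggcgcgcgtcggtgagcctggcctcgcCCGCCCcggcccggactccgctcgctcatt
Acadl: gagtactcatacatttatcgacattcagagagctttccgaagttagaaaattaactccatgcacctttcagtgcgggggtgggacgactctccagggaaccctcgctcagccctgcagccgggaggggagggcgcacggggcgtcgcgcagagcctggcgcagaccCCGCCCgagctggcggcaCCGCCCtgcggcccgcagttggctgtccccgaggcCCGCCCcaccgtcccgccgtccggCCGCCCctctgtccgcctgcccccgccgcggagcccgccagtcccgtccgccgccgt
Cpt2: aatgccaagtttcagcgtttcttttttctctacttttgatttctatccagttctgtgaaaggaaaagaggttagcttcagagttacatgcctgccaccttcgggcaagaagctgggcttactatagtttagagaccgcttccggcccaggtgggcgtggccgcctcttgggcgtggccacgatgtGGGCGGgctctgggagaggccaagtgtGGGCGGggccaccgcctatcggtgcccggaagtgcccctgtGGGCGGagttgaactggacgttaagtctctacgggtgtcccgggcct

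All 9 genes had 1 RefSeq window each, and those of Cpt1a and Etfdh did not hold the gene's GENCODE start. The GC box occurred in the windows of 7 of the 9 genes, with 4 matches each in Acadl and Hadhb and 3 each in Cpt1a and Cpt2, and in 35.7% of 32851 promoter windows of the same length. AGGTCA was present in 4 (Cpt1a, Cpt1c, Acadm and Acadvl) beside 16.3% of all windows, and CCAAT in 3 (Cpt1a, Cpt1c and Etfdh) beside 37.4%. The 32851 windows were not limited to 1 per gene or to expressed genes, and no excess was tested. The windows of Hadha and Hadhb overlap, so 1 match can count for both. The GC box was present in genes that rose (Cpt1a, Hadhb and Etfdh) and in genes that fell (Cpt1c, Cpt2, Acadl and Hadha).

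The levels of 4 pairs of enzymes are also given as ratios of FPKM within a library, which do not depend on how libraries are scaled to each other. The pairs were chosen with the values of their genes known, and in 3 of them the genes are described above as moving in opposite directions with groups that did not overlap, so the ratios are a description with no test. The ratio of Cpt1c to Cpt1a was 1.35 ± 0.07 (SD, n = 3) with shlucif, 0.753 ± 0.038 with shArf1-1 and 0.688 ± 0.042 with shArf1-2, so that Cpt1a passed Cpt1c on this scale. The ratio of Hadha to Hadhb was 3.47 ± 0.08, 1.89 ± 0.16 and 2.04 ± 0.10, and that of Cpt2 to Cpt1a was 1.14 ± 0.12, 0.589 ± 0.017 and 0.480 ± 0.034 in the same order. In each of these 3 ratios all 6 Arf1-deficient libraries lay below all shlucif libraries, as the levels of the genes themselves had set. The mean log2 ratio differed by -0.91, -0.82 and -1.10 between Arf1-deficient and shlucif libraries. These differences do not depend on the gene lengths used, but the size of a ratio does. Per length of the principal transcript, described below, Cpt2 (9.35) already lay under Cpt1a (14.5) with shlucif. The ratio of Acadvl to Acadm was 1.35 ± 0.16 with shlucif, 1.43 ± 0.09 with shArf1-1 and 1.73 ± 0.22 with shArf1-2, with groups that overlapped and a log2 difference of 0.22.

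**Figure D2:**
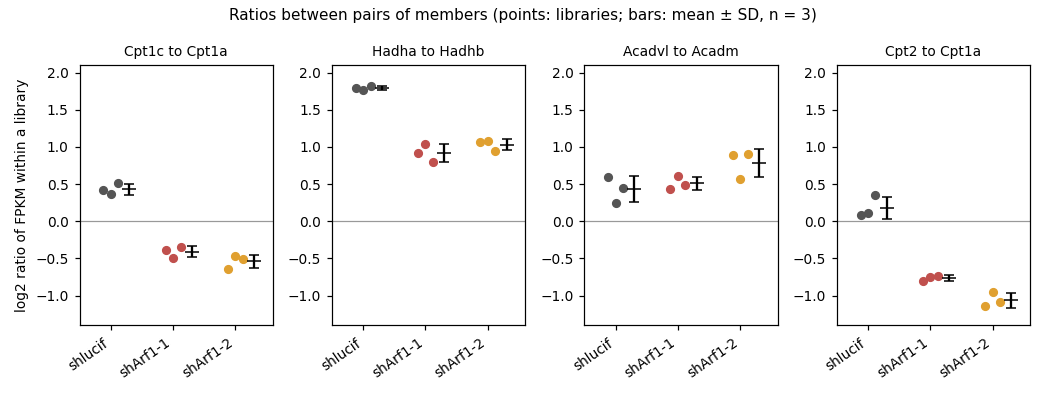
The log2 ratio of FPKM within a library (vertical axis, 0 for equal FPKM per listed length) for 4 pairs of enzymes in the 3 groups, 1 point per library, with bars for the mean ± SD of 3. All 6 Arf1-deficient libraries lie below shlucif for Cpt1c to Cpt1a, Hadha to Hadhb and Cpt2 to Cpt1a, and the groups overlap for Acadvl to Acadm.

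Each hairpin was then compared with shlucif on its own, in comparisons that share the 3 control libraries. With shArf1-1, 7 of the 9 enzymes passed the threshold, 3 higher and 4 lower, beside 67.5% of all tested genes, 33.1% higher and 34.4% lower. With shArf1-2 it was also 7, 3 higher and 4 lower, beside 63.4%, 30.9% higher and 32.6% lower. Acadl fell by 0.73 on the log2 scale with shArf1-1 and by 0.72 with shArf1-2, and Cpt2 fell by 0.59 and 0.52. Hadha fell by 0.20 and 0.27, and Cpt1c fell by 0.48 and 0.25. Among the genes that rose, Cpt1a had a log2 fold change of 0.36 with shArf1-1 and 0.72 with shArf1-2, Hadhb of 0.68 and 0.50, and Etfdh of 0.20 and 0.29. The Etfdh change with shArf1-1 (adjusted p = 0.0217 by edgeR) was lost without shlucif replicate 1 or without shArf1-1 replicate 3, at an adjusted p of 0.113 each. Acadm was at -0.08 and -0.15 and passed with neither hairpin. Acadvl was at 0.00 with shArf1-1 and at 0.20 with shArf1-2, where the 3 libraries lay above the controls and the adjusted p was 0.0531. That value crossed the threshold in 10 of 19 alternative settings, with adjusted p between 0.0102 and 0.221.

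**Figure D3:**
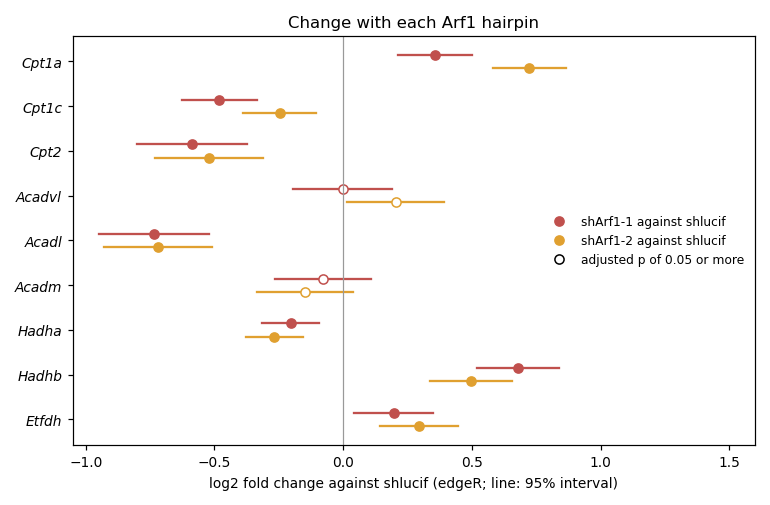
The log2 fold change against shlucif (horizontal axis) of the 9 enzymes with shArf1-1 and shArf1-2, with lines for the 95% interval from edgeR and open points for an adjusted p of 0.05 or more. Acadl is at -0.73 and -0.72 with the hairpins, whereas Cpt1a is at 0.36 and 0.72.

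The hairpins differed in 2 of the 9 enzymes, both higher with shArf1-2, beside 14.4% of all tested genes, 6.98% higher and 7.46% lower. Cpt1a was higher with shArf1-2 than with shArf1-1 by 0.37 in log2 (SE 0.07, adjusted p = 0.000273), and Cpt1c by 0.23 (SE 0.07, adjusted p = 0.0247). For Cpt1a this lay in the direction of its change against shlucif and for Cpt1c against it. The Cpt1c difference did not pass without shArf1-1 replicate 1, shArf1-1 replicate 3, shArf1-2 replicate 1 or shArf1-2 replicate 3, with adjusted p between 0.0536 and 0.110. Arf1 itself was higher with shArf1-2 by 0.34. For Acadl the difference was 0.02, with a 95% interval from -0.20 to 0.24, and for Cpt2 it was 0.07, from -0.15 to 0.29. Hadhb was lower with shArf1-2 by a value of -0.18 (adjusted p = 0.103), which passed without shArf1-1 replicate 2 at -0.25 (adjusted p = 0.0198).

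In level, the enzymes were moderately expressed. Their median was 9.28 FPKM with shlucif, at the 76.7th percentile of the table, 8.84 with shArf1-1 and 9.04 with shArf1-2. Per listed length, the shlucif order of mean FPKM was Hadha (19.5), Acadl (14.2), Cpt1c (11.01), Acadvl (10.7), Cpt2 (9.28), Cpt1a (8.18), Acadm (7.95), Etfdh (6.21) and Hadhb (5.62). The libraries of Cpt1c and Acadvl, of Cpt1a and Acadm, and of Etfdh and Hadhb overlapped in range, and the other neighbours did not. With shArf1-2 Cpt1a stood next to Hadha, at 14.2 and 17.0 FPKM, and Cpt2 was the lowest with either Arf1 hairpin, at 6.42 with shArf1-1 and 6.80 with shArf1-2.

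The listed length is the union of all annotated exons, and it exceeds the principal GENCODE transcript by a factor between 1.01 (Cpt2) and 3.22 (Hadhb). Per length of the principal transcript the shlucif order became Hadha (42.3 on the FPKM scale), Cpt1c (22.1), Etfdh (19.6), Hadhb (18.1), Acadm (15.2), Acadl (14.8), Cpt1a (14.5), Acadvl (13.3) and Cpt2 (9.35). Hadha was first on both scales, Hadhb moved from the last place to the fourth, and Acadl from the second to the sixth. An order between genes therefore depends on the length used, whereas the fold changes of a gene do not. Which transcripts these cells make was not measured.

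**Figure D4:**
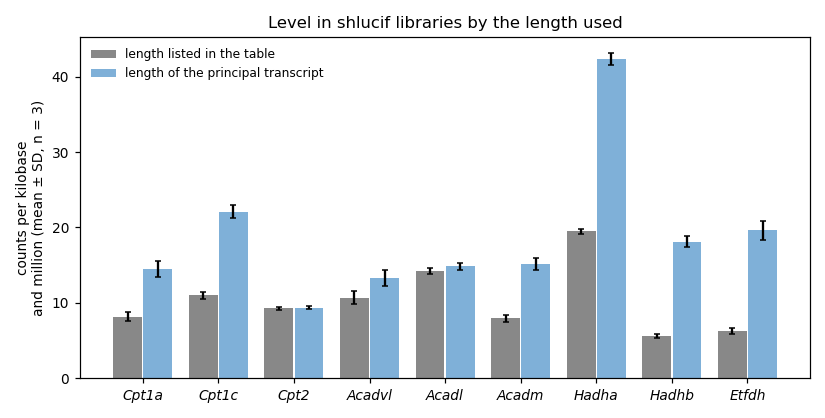
Mean level of the 9 enzymes in shlucif libraries (vertical axis from 0, FPKM scale, bars with SD, n = 3) per length listed in the table, in gray, and per length of the principal transcript, in blue. Hadhb is at 5.62 by the former and 18.1 by the latter, and Hadha is highest on both.

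The other genes of fatty acid oxidation were followed in 7 lists of 63 genes, of which 54 passed the filter. In Arf1-deficient cells 10 of these were higher, 19 lower and 25 did not pass. The share called was 53.7% of the 54, beside 64.5% of all tested genes (31.6% higher and 32.9% lower), and the median log2 fold change was -0.11 beside 0.00. With shArf1-1 it was 12 higher and 22 lower (63.0% called, beside 67.5% of all tested genes), and with shArf1-2 it was 11 and 16 (50%, beside 63.4%). Between the hairpins 3 were higher and 1 lower with shArf1-2 (7.41%, beside 14.4%). The share called over these 54 genes together was no higher than over all genes in any comparison, although it was higher in some single lists. The counts per list below, of 4 to 15 tested genes each, are a description to be read beside the same 64.5%.

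In the carnitine shuttle 1 of 4 tested genes rose and 0 fell by edgeR's test. It was Crat, carnitine acetyltransferase, at 15.3 ± 0.94 FPKM with shlucif (SD, n = 3) and 19.5 ± 1.14 in Arf1-deficient cells (SD, n = 6), a log2 fold change of 0.29. Of 6 tested acyl-CoA dehydrogenases and electron transfer genes 3 rose and 2 fell. Acad12 rose by 0.67 on the log2 scale and Acad9, also an assembly factor of complex I, by 0.39. Acads, the short-chain dehydrogenase, fell from 20.3 ± 1.46 to 12.3 ± 1.05 FPKM (log2 fold change -0.78, adjusted p = 1.56e-07), and Acad10 had -0.51. Of 4 genes of hydration, the second oxidation and thiolysis 0 rose and 2 fell, Hsd17b10 from 60.1 ± 3.55 to 36.9 ± 2.09 FPKM (-0.77) and Hadh, the short-chain hydroxyacyl-CoA dehydrogenase, by a log2 fold change of -0.25. The short-chain enzymes Acads and Hadh were lower together with the long-chain Acadl. Echs1, the short-chain hydratase, named after its values were seen, was not called (log2 fold change -0.08, adjusted p = 0.249 by edgeR). The medium-chain Acadm was not called. The very-long-chain Acadvl was not called either, while Acad9, Acad12 and Hadhb were higher, and no pattern by chain length was tested.

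Among 8 genes for unsaturated and odd-chain fatty acids 1 rose and 3 fell. Pccb, a subunit of propionyl-CoA carboxylase, had a log2 fold change of 0.59, Mmut, methylmalonyl-CoA mutase, of -0.62, and Eci1, an enoyl-CoA isomerase, of -0.34. Of 13 tested peroxisomal genes 1 rose, 4 fell and 8 did not pass. Ehhadh, the peroxisomal bifunctional enzyme, rose from 0.828 ± 0.265 to 1.67 ± 0.29 FPKM (log2 fold change 0.94, adjusted p = 0.00178), a low level with 24 to 46 counts per shlucif library. Acaa1a, a peroxisomal thiolase, had -0.53 and Scp2, sterol carrier protein 2, had -0.33. Of 4 tested genes of ketone body metabolism 1 rose and 1 fell. Bdh1, which interconverts the ketone bodies, rose from 9.83 ± 1.12 to 16.1 ± 0.96 FPKM (log2 fold change 0.65, adjusted p = 7.69e-07).

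Of 15 tested regulators of oxidation 3 rose and 7 fell (66.7% called, close to the 64.5% of all tested genes), with a median log2 fold change of -0.33 beside 0.00. Ppard, a nuclear receptor for fatty acids, fell from 11.6 ± 0.21 to 4.33 ± 0.55 FPKM (log2 fold change -1.48, adjusted p = 1.66e-11). Pparg, chosen after its values were seen, had -1.28, and Ppara held between 6 and 29 counts per library and did not pass (-0.67, adjusted p = 0.150). Acaca, which makes malonyl-CoA, rose from 4.80 ± 0.30 to 7.997 ± 0.289 FPKM (0.67, adjusted p = 6.41e-09), and Prkaa1, a catalytic subunit of AMP-activated kinase, had 0.32. Prkaa2, the other catalytic subunit, held 101 to 121 counts in each shlucif library and 0 in all 6 Arf1-deficient libraries, at least 27.3-fold lower when 3 counts per library are taken as the floor. With Prkaa2 at this bound the median of the regulators was also -0.33. Ppargc1a and Pdk4, chosen after their values were seen, had no counts in any library. With 3 counts per library taken as the floor, a low level of either could go unseen.

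**Figure D5:**
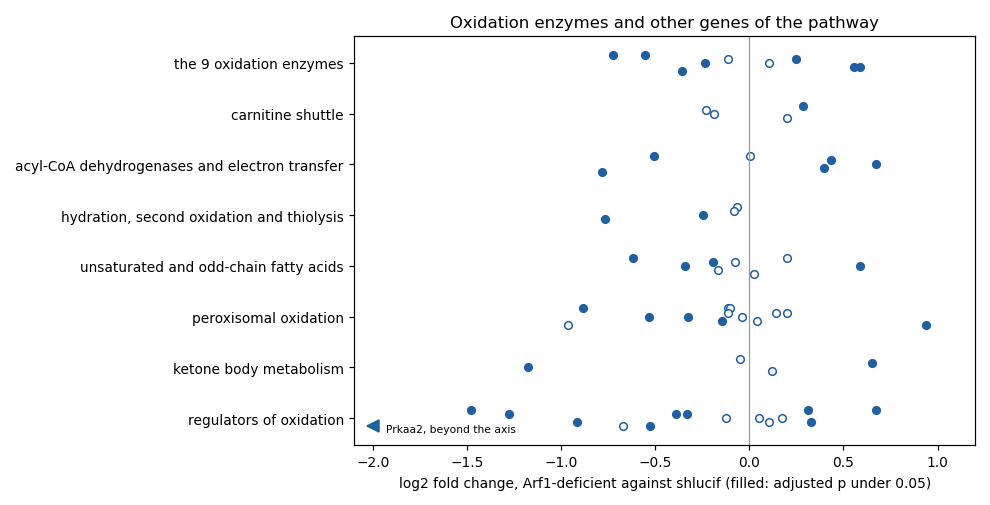
The log2 fold change in Arf1-deficient against shlucif libraries (horizontal axis) of the 9 enzymes and of the tested genes of 7 other oxidation lists, 1 point per gene, filled where the adjusted p is under 0.05, with Prkaa2 beyond the axis as an arrowhead. Changes lie on both sides of 0 in the 9 enzymes, and 19 of the 54 other genes are lower and 10 higher.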

How the data were processed

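RNA-seq data of 9 N2a libraries were analysed. The authors deposited 1 table with a whole-number read count and an FPKM value per gene and library, of which 8 broken continuation lines were left out. All deposited FPKM values above 0 were recomputed within 0.1% from the count, the listed length and the library total. Per the labels, RNA was enriched on oligo(dT) and primed at random. The submitters' processing notes name mm10, whereas aligner, counter and strand setting are not given in the sources used here. Columns whose name has a 2 directly after Arf were taken as shArf1-2 and the others as shArf1-1, by reading of the names. The table's starts matched GENCODE M21 for 514 of 21795 identifiers and 0 of the 9 members, so GRCm38 coordinates were looked up there by gene identifier.

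Counts were filtered by filterByExpr, scaled by TMM and tested in edgeR 4.0.16 (R 4.3.3) by glmQLFit with robust estimation and glmQLFTest, with 6 Arf1-deficient against 3 shlucif libraries and a fit of the 3 groups for the hairpins. Standard errors are the size of the log2 fold change divided by the square root of F. Genes under 0.05 after Benjamini-Hochberg adjustment were called. A permutation test planned for the ratios is not reported, since the direction of 3 of them was fixed by the choice of their genes. Procedures were tested on simulated counts. Replicate pairs differed by more than sampling noise. Total counts per library set the counting error, and 3 counts served as the floor.

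Members and lists were chosen with earlier results of these data known. The genes named are the 9 members, Arf1, and of each list up to 2 called genes per direction, those of largest change, with at least 1 FPKM in the higher group, and of the macrophage markers the 3 with the most counts. A gene that meets this rule is not reported here, although list counts include it. Alternatives were DESeq2 1.42.0, RLE, library size and upper quartile scaling, no filter, at least 10 counts in every library, limma 3.58.1 with pseudocounts of 1 and 0.1 on the log2 FPKM scale, a block for the replicate number, the hairpin contrasts averaged, a fit without the third group and leaving out each library. The principal transcript length was added after the data were seen.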

Additional observations from a re-analysis of the deposited data

Results flagged for a closer look

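The change against shlucif differed between the hairpins for Cpt1a, by a log2 value of 0.37 in edgeR's 3-group fit (adjusted p = 0.000273), higher in 3 of 3 shArf1-2 libraries than in any shArf1-1 library. For Cpt1c the difference was 0.23 (adjusted p = 0.0247), also in 3 of 3 libraries. Arf1 itself differed by 0.34 in the same comparison, and its part in these differences was not tested. Acadvl, not called between the hairpins (adjusted p = 0.138 by edgeR), was separated in the same way, so the separation is no further support. The Cpt1c difference did not pass in some fits without 1 library, as given above.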

How the results depend on the processing

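In Arf1-deficient cells against shlucif, all 171 results of the 9 enzymes under the 19 alternatives kept their direction and their side of the threshold. With shArf1-1 163 of 171 did, with shArf1-2 161 of 171, and between the hairpins 162 of 171. Values near 0 that did not pass changed sign. With shArf1-1 Acadvl, at -0.0019, was at 0.0527 by library size alone, 0.0018 without the filter, 0.0442 and 0.0476 by limma with pseudocounts of 1 and 0.1, and between -0.0677 and 0.0734 over the libraries left out. Between the hairpins Acadm ranged from -0.1302 to 0.0089 and Acadl from -0.0616 to 0.1179, with Acadm at 0.0089 without shArf1-1 replicate 3, and Acadl at -0.0381 and -0.0231 without shArf1-1 replicate 2 or 3 and at -0.0616 without shArf1-2 replicate 1. The number of enzymes that differed between the hairpins ranged from 1 to 3 over the fits without 1 library, and fell to 1 without shArf1-1 replicate 1, shArf1-1 replicate 3, shArf1-2 replicate 1 or shArf1-2 replicate 3. The number of all tested genes that differed between the hairpins ranged from 1159 to 1977 and fell to 1159 without shArf1-1 replicate 1 and to 1194 without shArf1-2 replicate 1. Fewer libraries entered these fits. The ratio differences ranged from -0.94 to -0.87 (Cpt1c to Cpt1a), from -0.84 to -0.79 (Hadha to Hadhb) and from -1.14 to -1.01 (Cpt2 to Cpt1a) over the libraries left out. Per principal transcript length, added after the data were seen, the shlucif levels of 8 of 9 enzymes moved by more than 1 SD.

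Same-numbered libraries did not deviate together (r between -0.132 and 0.176 over 9 pairs), so the numbers were not taken to pair them. With the replicate block 7808 genes passed in Arf1-deficient cells and 7 of the 9 enzymes, and no enzyme's call changed in any comparison. Depth limits Cpt1b, Ppara and Ehhadh, which had few counts.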

Other observations

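Etfa and Etfb encode the subunits of electron transfer flavoprotein, which passes electrons to Etfdh. Etfa held 63.6 FPKM on average with shlucif and 66.5 in Arf1-deficient cells, with a log2 fold change of 0.00 (adjusted p = 0.976 by edgeR). Etfb, chosen after its values were seen, held 1 to 5 counts in the shlucif libraries and 1 to 13 in the Arf1-deficient libraries and was not tested, although its protein works in a complex with that of Etfa. Whether that low count comes from the cells or from the counting was not tested.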
